A study of Mus musculus with 18 samples.

Results

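The synaptic vesicle release machinery was described here through 37 genes, taken as every probe set whose single gene symbol in the platform annotation named one of them. They were covered by 108 of the 34945 probe sets with 1 symbol, and by 37 of the 18193 genes on the arrays. Of the 37 genes, 30 were averaged over several probe sets and the others rested on 1. The genes were grouped by role as 4 SNARE proteins (Snap25, Stx1a, Vamp1, Vamp2), 5 synaptotagmins (Syt1, Syt2, Syt4, Syt7, Syt11), 2 complexins (Cplx1, Cplx2), 3 synapsins (Syn1, Syn2, Syn3), 5 vesicle membrane proteins (Syp, Sypl, Synpr, Syngr1, Syngr3) and 3 SV2 glycoproteins (Sv2a, Sv2b, Sv2c). The rest were 6 docking and priming genes (Rab3a, Rab3b, Rab3c, Rims1, Rims2, Unc13a), 3 SNARE disassembly genes (Nsf, Napa, Napb), 5 endocytosis and uncoating genes (Dnm1, Amph, Synj1, Sh3gl2, Dnajc6) and the SNARE chaperone gene Dnajc5.

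The samples were dopamine neurons of adult C57Bl/6 mice, cut out by laser from 2 midbrain regions, the ventral tegmental area (VTA) and the substantia nigra (SN). MPTP is a neurotoxin that is converted in the brain to a product taken up by dopamine neurons through the dopamine transporter. The study had 6 groups of 3 arrays: SN and VTA after saline, after 2 days of MPTP and after 10 days of MPTP, with MPTP at 4 mg/kg and death 7 days after the last injection. Saline was given for 10 days, and some label fields call these mice untreated. Every mouse, saline mice included, carried the hTH-GFP transgene and had been housed alone for 9 weeks. The labels call the replicates biological, but do not tie arrays to mice, so an SN and a VTA array may come from the same animal. They state neither how many mice stand behind an array nor how the neurons were recognised.

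At a nerve terminal, transmitter is held in vesicles that are docked and primed at the active zone by Rab3, Rim and Munc13 proteins. Syntaxin, SNAP-25 and synaptobrevin zip together to pull vesicle and plasma membrane close, complexin clamps and assists that complex, and synaptotagmin triggers fusion when calcium enters. The fused SNARE complex is taken apart by NSF and SNAP proteins, and the membrane is recovered by dynamin, amphiphysin, endophilin, synaptojanin and auxilin. Most messenger RNA for these proteins sits in the cell body, away from the terminal where the proteins work. Sv2c is the SV2 form known for its high expression in the basal ganglia and in midbrain dopamine neurons.

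The deposited values were log2 signals with the median of each probe set over the 18 arrays set to 0. A value of 1 thus means 2 times the gene's own median over the arrays, and no gene's level can be set against that of another gene. Array medians stayed close to 0 and 0 pairs of arrays were identical. Captured tissue holds RNA of several cells, and fewer cells of a type and less RNA per cell cannot be told apart in such samples.

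Against saline, the 37 genes were divided between higher and lower values in each region and at each duration. The median difference of the genes in SN was 0.012 on the log2 scale after 2 days, with 20 higher and 17 lower, and -0.031 after 10 days, with 17 higher and 20 lower. In VTA it was -0.010 after 2 days, with 18 higher and 19 lower, and 0.0057 after 10 days, with 19 higher and 18 lower. With arrays left out in turn, the median ran from -0.118 (without SN 10-day array 1) to -0.026 in SN after 10 days and from -0.0148 to 0.0664 (without VTA 2-day array 3) in VTA after 2 days. Medians over all 18193 genes were -0.027, -0.017, -0.0082 and -0.0047 in the same 4 comparisons. By limma with Benjamini-Hochberg adjustment over all genes, 0 of 37 passed the threshold of 0.05 in any of the 4, where 0%, 0.00550%, 0.0110% and 0.0110% of all genes did. At an unadjusted p under 0.05, 1 vesicle gene was higher and 3 lower in SN after 2 days, against 2.85% and 3.80% of all genes. After 10 days in SN the counts were 0 higher and 2 lower, with 2.43% and 3.14% of all genes. In VTA they were 2 higher and 1 lower after 2 days, with 4.14% and 3.92%, and 1 higher and 1 lower after 10 days, with 2.89% and 2.53%. Within a region both durations were set against the same 3 saline arrays. As saline was given for 10 days, the 2-day comparisons also differ in the number of injection days.

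**Figure D1:**
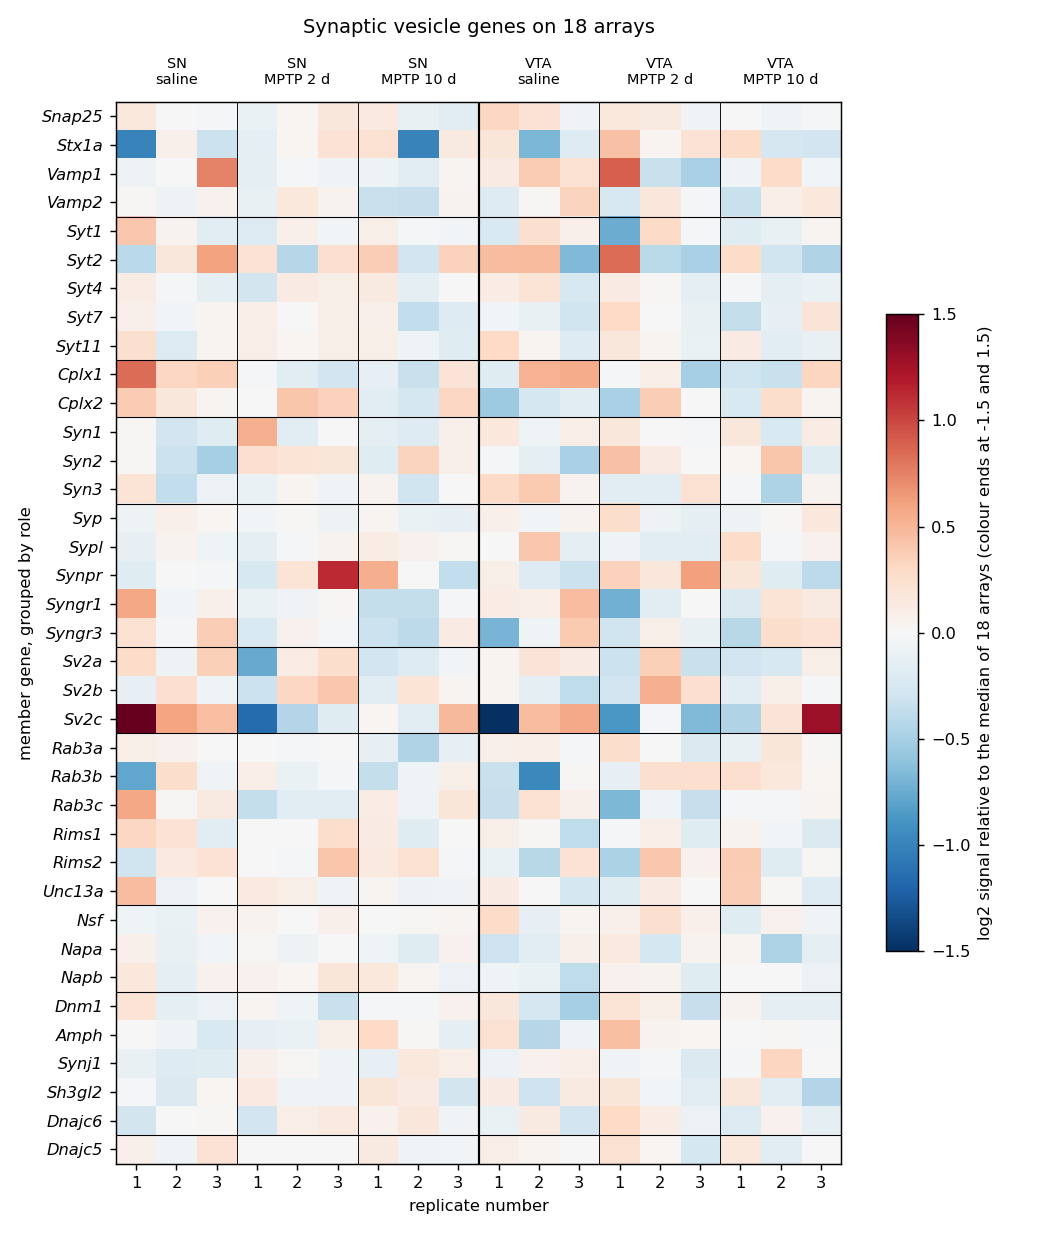
Log2 signal of the 37 vesicle genes (rows, by role, lines between roles) on each of the 18 arrays (columns, replicates 1 to 3 of each group), relative to each gene's median over the arrays. Most cells are pale, Sv2c carries the strongest colours, with 1.86 on SN saline array 1 and -1.69 on VTA saline array 1.

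In SN after 2 days, 2 of the 37 vesicle genes, Syn2 and Synj1, were higher on every MPTP array than on every saline array, where 5.96% of all genes were. Lower without overlap were 4, Sv2c, Cplx1, Rab3c and Rab3a, against 8.56% of all genes. Sv2c, which encodes a vesicle glycoprotein, was at -1.15, -0.44 and -0.18 on the 2-day SN arrays, against 1.86, 0.59 and 0.45 on the SN saline arrays. All saline arrays lay above the median of the 18 arrays and all 2-day arrays below it. The difference was -1.56 ± 0.55 (SE, n = 3 each; 2.95-fold lower), with an adjusted p of 0.646 by limma, so it was not called. Its values rested on 1 probe set.

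Cplx1, the complexin that clamps and assists SNARE complexes, was at -0.03, -0.17 and -0.28 on the 2-day SN arrays, against 0.83, 0.31 and 0.35 on saline. The difference was -0.66 ± 0.24 (SE, n = 3 each; 1.58-fold lower; limma adjusted p = 0.646), and all 3 of its probe sets were lower, between -0.87 and -0.53. Rab3c, a small GTPase of vesicle docking, was at -0.35, -0.15 and -0.16 after 2 days, against 0.58, 0.02 and 0.13 on saline. Rab3c differed by -0.47 ± 0.18 (SE, n = 3 each; limma adjusted p = 0.683), with 5 of 5 probe sets lower. Without SN saline array 1 and VTA 2-day array 1, the Rab3c difference was -0.30. Syn2, a synapsin that tethers vesicles in the reserve pool, ran the other way, at 0.26, 0.21 and 0.18 after 2 days against 0.02, -0.33 and -0.50 on saline. Its difference was 0.49 ± 0.19 (SE, n = 3 each; limma adjusted p = 0.683), with 6 of 6 probe sets higher. Timp4, which lies inside Syn2 in the annotation, differed by 0.22 in the same comparison.

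The other pair without overlap in SN after 2 days were small. Synj1, the lipid phosphatase synaptojanin, was at 0.07, 0.02 and -0.06 against -0.12, -0.19 and -0.18 on saline (0.17 ± 0.12, SE). Each of its 4 probe sets overlapped with saline when taken alone. Rab3a, the main Rab3 of many synapses, lay between -0.03 and 0.00 after 2 days against 0.01 to 0.08 on saline (-0.06 ± 0.14, SE), and 1 of its 2 probe sets was higher. Taken alone, each of these 2 overlapped with saline. The 2 Rab3a probe sets had a correlation of 0.00 with each other over the 18 arrays, so they did not report the same changes.

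**Figure D2:**
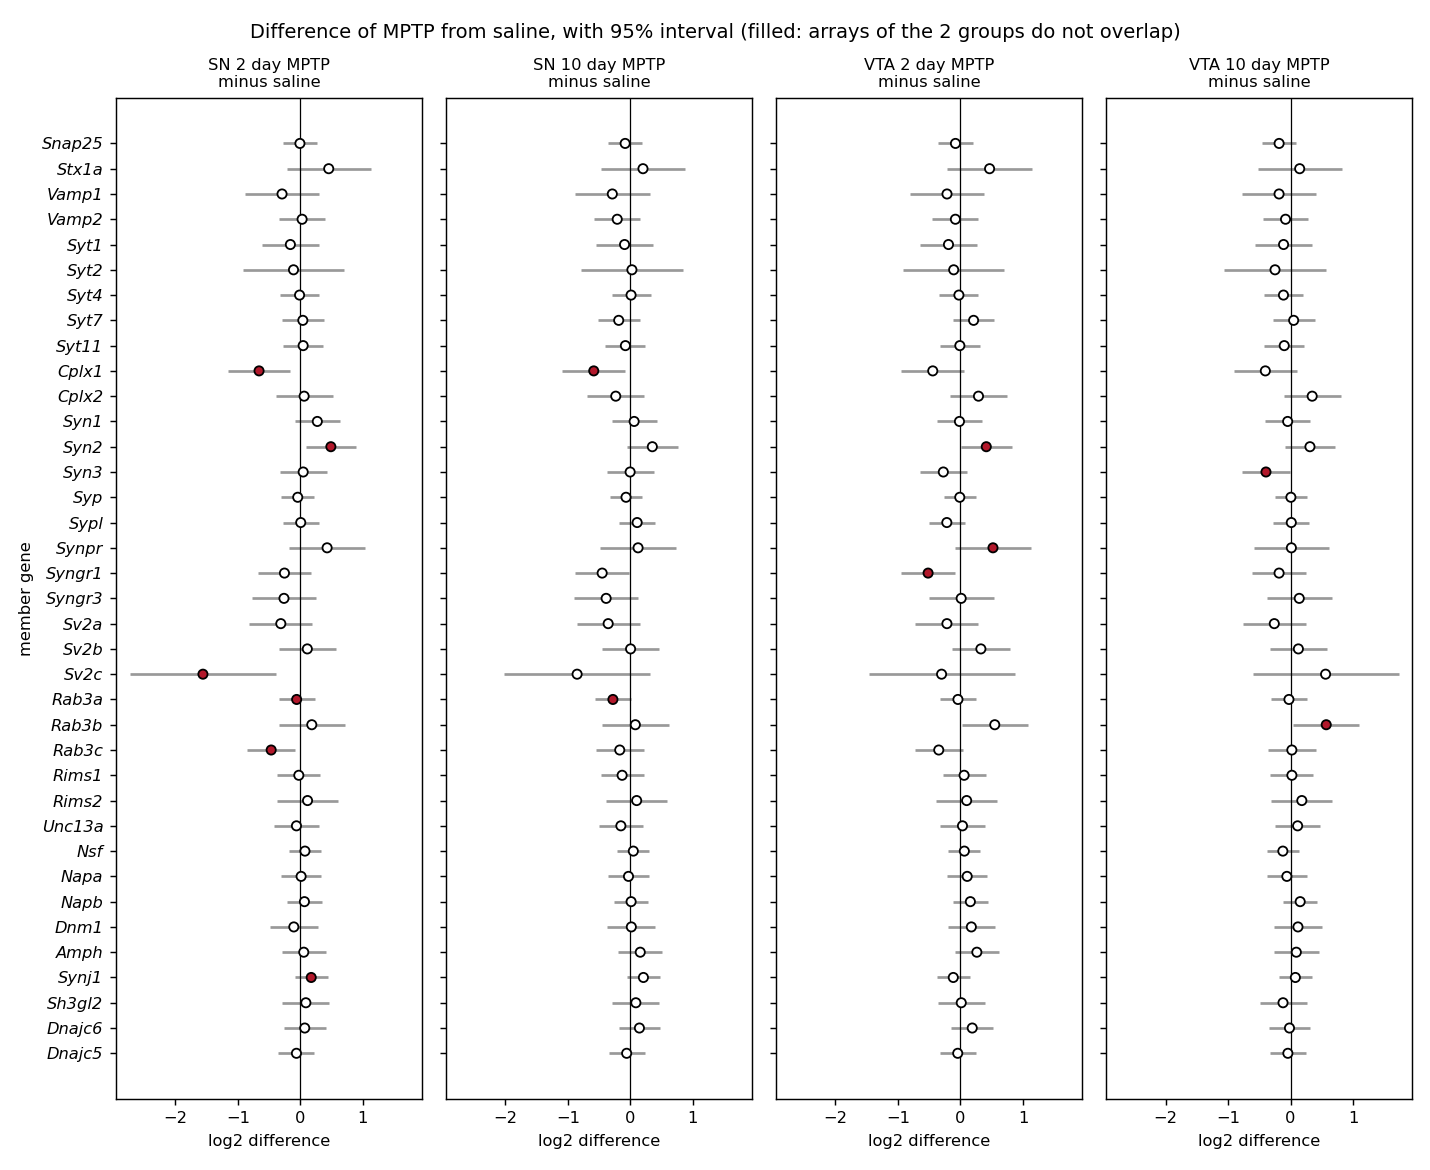
Log2 difference of MPTP from saline (points) with its 95% interval from limma (lines, n = 3 arrays a group) for the 37 vesicle genes in SN and VTA after 2 and 10 days; filled points mark genes whose 2 groups of arrays do not overlap. Most intervals span 0, and Sv2c has the widest, from -2.73 to -0.39 in SN after 2 days.

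After 10 days of MPTP in SN, arrays did not overlap for 2 vesicle genes, Cplx1 and Rab3a, both lower, against 6.27% of all genes. Cplx1 was at -0.12, -0.33 and 0.19 on the 10-day arrays, against 0.83, 0.31 and 0.35 on saline. The difference was -0.59 ± 0.24 (SE, n = 3 each; limma adjusted p = 0.887), again with 3 of 3 probe sets lower. Rab3a was at -0.12, -0.45 and -0.12, against 0.08, 0.06 and 0.01, which gave -0.28 ± 0.14 (SE; adjusted p = 0.894 by limma). Its 2 probe sets, at -0.45 and -0.11, each overlapped with saline when taken alone. Without SN 10-day array 2 the Rab3a difference was -0.17. Syngr1, a synaptogyrin of the vesicle membrane, overlapped between groups at -0.36, -0.35 and -0.02 against 0.58, -0.04 and 0.08 (-0.45 ± 0.20, SE), and differed by -0.26 without SN saline array 1. Taken alone, the Syngr1 probe sets at -0.79 and -0.35 were lower without overlap, while the one at -0.22 overlapped. Sv2c, at 0.03, -0.17 and 0.49 on the 10-day arrays, overlapped with saline too, and its difference was -0.85 ± 0.55 (SE), or -0.41 without SN saline array 1.

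In VTA after 2 days, 2 vesicle genes were higher without overlap, against 5.10% of all genes, and 1 was lower, against 4.92%. Syn2 was at 0.45, 0.13 and 0.01 on the 2-day VTA arrays, against -0.03, -0.14 and -0.48 on saline, a difference of 0.41 ± 0.19 (SE, n = 3 each; limma adjusted p = 0.615) with 5 of 6 probe sets higher. The 6 probe sets ran from -0.13 to 1.26, and only the one at 0.60 was without overlap. Timp4, inside Syn2, differed by -0.07 there. Synpr, which encodes the vesicle membrane protein synaptoporin, was at 0.35, 0.17 and 0.61 against 0.09, -0.19 and -0.32 (0.52 ± 0.29, SE; limma adjusted p = 0.692). Syngr1 was lower, at -0.72, -0.17 and 0.01 against 0.11, 0.10 and 0.46, with a difference of -0.52 ± 0.20 (SE; limma adjusted p = 0.546). Of its 3 probe sets, which each overlapped with saline, 1 stood at -1.20 and the other 2 at -0.18 each. The Syngr1 difference was -0.31 without VTA 2-day array 1. Cplx1 differed by -0.44 ± 0.24 and Rab3c by -0.35 ± 0.18 (SE), both with overlapping arrays and with all of their probe sets lower. They were -0.27 for Cplx1 without VTA 2-day array 3 and -0.19 for Rab3c without VTA 2-day array 1.

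In VTA after 10 days, 1 vesicle gene was higher and 1 lower without overlap, against 4.77% and 4.53% of all genes. Rab3b, a Rab3 form found in a subset of neurons and in endocrine cells, was at 0.26, 0.16 and 0.02, against -0.33, -0.96 and 0.01 on saline. Its difference was 0.57 ± 0.25 (SE, n = 3 each; limma adjusted p = 0.865) and 0.30 without VTA saline array 2. After 2 days in VTA the same gene differed by 0.55 ± 0.25 (SE), with arrays that overlapped, and by 0.28 without VTA saline array 2. Syn3, the third synapsin, was at -0.03, -0.46 and 0.05 after 10 days, against 0.29, 0.40 and 0.05 on saline. Its difference was -0.39 ± 0.18 (SE; limma adjusted p = 0.890), with 3 of 3 probe sets lower, each with arrays that overlapped. The Syn3 difference was -0.24 without VTA 10-day array 2. Timp3 and Fbxo7, which overlap Syn3 in the annotation, differed by -0.43 and 0.11 in that comparison.

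As gene averages, the core fusion genes overlapped with saline in all 4 comparisons. Snap25, the plasma membrane SNARE, differed by -0.01 in SN and -0.08 in VTA after 2 days, and by -0.08 in SN and -0.18 in VTA after 10 days. Its widest 95% bound was -0.46, in VTA after 10 days, where 1 of its 2 probe sets was lower without overlap. Vamp2, the main vesicle SNARE, differed by 0.03 in SN and -0.08 in VTA after 2 days, and by -0.21 in SN (interval -0.58 to 0.16) and -0.08 in VTA after 10 days. Syp, the abundant vesicle protein synaptophysin, differed by -0.04 in SN (interval -0.30 to 0.22) and -0.01 in VTA after 2 days, and by -0.07 in SN and 0.01 in VTA after 10 days. Changes inside these intervals were not detectable with 3 arrays a group. Of the 2 Syp probe sets, 1 was lower without overlap in SN after 10 days, at -0.18, and the other stood at 0.04. Stx1a, the syntaxin partner of Snap25, differed more, by 0.45 ± 0.32 in SN and 0.47 ± 0.32 in VTA after 2 days and by 0.20 ± 0.32 and 0.15 ± 0.32 after 10 days (SE). Without SN saline array 1 its 2-day difference in SN was 0.16, and without VTA saline array 2 that in VTA was 0.24. On the SN saline arrays it lay at 0.07, at -0.32 and, on array 1, lowest of the 3. Both of the 2 Stx1a probe sets were at 0.45 in SN after 2 days, and 1 of them was higher without overlap.

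Among calcium sensors, Syt1, the fast trigger of release, differed by -0.16 ± 0.21 in SN (-0.01 without SN saline array 1) and -0.19 ± 0.21 in VTA after 2 days (0.10 without VTA 2-day array 1; SE). Of its 4 probe sets, 3 were lower without overlap in SN after 2 days, between -0.52 and -0.28, and the other stood at 0.48. After 10 days in SN, Syt1 probe sets at -0.35 and -0.33 were lower without overlap, while those at -0.22 and 0.53 overlapped. Every Syt1 probe set overlapped with saline in VTA. Syt4, Syt7 and Syt11 stayed between -0.19 and 0.21 in the 4 comparisons. Syt2 ran from -0.66 to 0.84 over the arrays, and its interval in SN after 2 days was -0.92 to 0.70. Cplx2 lay between -0.23 in SN after 10 days and 0.35 in VTA after 10 days. The vesicle SNARE gene Vamp1 lay between -0.29 and -0.18 and the SV2 gene Sv2a between -0.36 and -0.22, below 0 in each of the 4 comparisons without a call. Sv2b lay between 0.00 and 0.33, Syngr3 between -0.39 and 0.14, Sypl between -0.22 and 0.11 and Syn1 between -0.05 and 0.27. The SNARE disassembly genes Nsf, Napa and Napb lay between -0.12 and 0.16. Of the endocytosis genes, dynamin gene Dnm1 lay between -0.10 and 0.17, amphiphysin gene Amph between 0.05 and 0.26, and endophilin gene Sh3gl2 between -0.12 and 0.09. Dnajc6, the auxilin gene, lay between -0.02 and 0.19, but 1 of its 4 probe sets stood at 0.96 in SN after 10 days and at 1.19 in VTA after 2 days while the other 3 were lower than saline. The active zone genes Rims1, Rims2 and Unc13a lay between -0.15 and 0.18. The chaperone gene Dnajc5, whose product keeps SNAP-25 folded, lay between -0.06 and -0.04, but its 5 probe sets disagreed (median correlation -0.05). They ran from -0.51 to 0.25 in SN after 2 days, where the probe set at -0.36 was lower without overlap. After 10 days in SN the Dnajc5 probe set at 0.30 was higher without overlap.

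**Figure D3:**
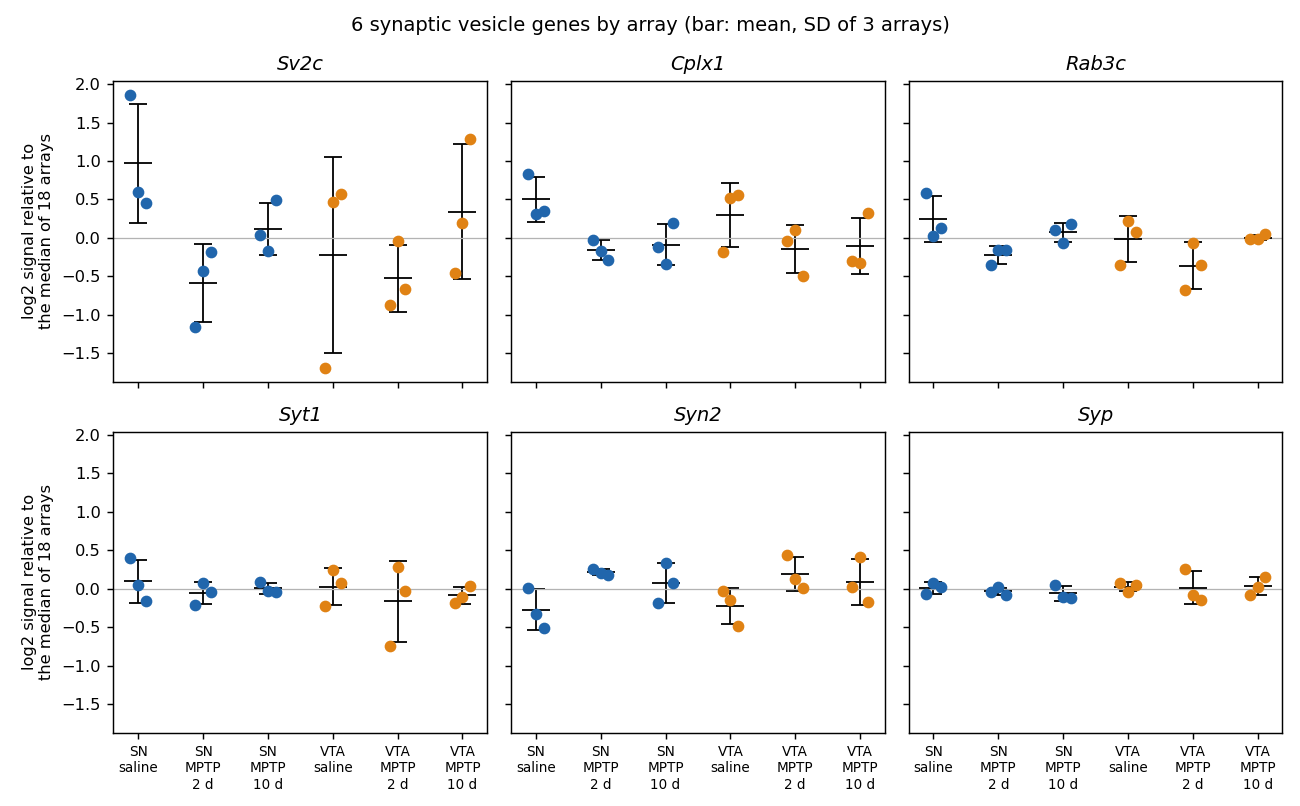
Log2 signal relative to the median of the 18 arrays for 6 vesicle genes by group; points are arrays, and the bar is the mean with SD (n = 3). Sv2c spreads from -1.69 to 1.86, Cplx1 and Rab3c are lower in SN after 2 days than after saline on every array, Syn2 is higher, and Syp stays between -0.14 and 0.26.

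The 2 durations were set against each other with 3 arrays each. In SN, Sv2c and Rab3c were higher after 10 than after 2 days on every array and Rab3a was lower, against 6.10% of all genes higher and 5.02% lower. Sv2c differed by 0.71 ± 0.55, Rab3c by 0.30 ± 0.18 and Rab3a by -0.22 ± 0.14 (SE, limma adjusted p = 0.9998 for each). The Sv2c value was 0.42 without SN 2-day array 1, and the Rab3a value -0.11 without SN 10-day array 2. In VTA, Rab3c (0.37 ± 0.18) and Sypl (0.23 ± 0.14), a synaptophysin relative, were higher after 10 days, and Nsf (-0.19 ± 0.12) and Amph (-0.17 ± 0.17) were lower (SE), against 5.11% of all genes higher and 5.13% lower. The smallest limma adjusted p of these was 0.815, for Rab3c, whose difference was 0.21 without VTA 2-day array 1. Without that array the Amph difference was -0.03, and the Sypl difference was 0.15 without VTA 10-day array 1. In all, 0 of 37 vesicle genes passed between durations, with 0.0165% of all genes called in SN and 0.0330% in VTA, and 0 vesicle genes had an unadjusted p under 0.05. Of all genes, 1.70% were higher and 1.31% lower by that rule in SN, and 3.16% and 3.18% in VTA.

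Between regions, the question was whether VTA neurons differ from SN neurons before and after MPTP. After saline, Synj1 was higher in VTA than in SN on every array and Cplx2 and Syt7 were lower, against 3.46% of all genes higher and 3.84% lower. Cplx2, the second complexin, was at -0.54, -0.26 and -0.16 in VTA against 0.38, 0.17 and 0.04 in SN, a difference of -0.52 ± 0.22 (SE, n = 3 each; limma adjusted p = 0.9998). Sv2c differed by -1.19 ± 0.55 (SE) in the same comparison, with VTA arrays at -1.69, 0.46 and 0.57 that overlapped with SN. Without VTA saline array 1, which held the low value, the Sv2c difference was -0.46 and its unadjusted limma p was 0.351. The Syt7 difference of -0.17 was -0.10 without VTA saline array 3. After 2 days of MPTP, 0 vesicle genes were without overlap, against 4.99% of all genes higher in VTA and 3.55% lower. After 10 days Rab3a alone was higher in VTA (0.26 ± 0.14, SE; limma adjusted p = 0.9999; 0.15 without SN 10-day array 2), against 4.88% of all genes higher and 4.12% lower. Averaged over treatments, the vesicle genes had a median of -0.01, and Cplx2 had the smallest adjusted p, 0.972 by limma, at -0.25 ± 0.12 (SE). By limma, 0 vesicle genes and 0% of all genes passed in these region comparisons, and 2 vesicle genes had an unadjusted p under 0.05, both lower in VTA after saline (Cplx2 and Sv2c). Without VTA saline array 1 the unadjusted limma p of Cplx2 was 0.112. Of all genes, 1.85% were higher and 2.51% lower in VTA by that rule after saline, 1.73% and 1.06% after 2 days, 1.89% and 1.10% after 10 days, and 2.27% and 1.93% over treatments.

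The response of VTA minus that of SN was tested as an interaction, and again 0 vesicle genes and 0% of all genes passed, with 0 vesicle genes at an unadjusted p under 0.05. By that rule 1.97% of all genes were higher and 1.33% lower at 2 days, and 1.82% and 1.34% at 10 days. At 2 days the genes of smallest p were Synj1 (-0.29 ± 0.18), Sv2c (1.26 ± 0.78), Syn3 (-0.32 ± 0.25), Syn1 (-0.29 ± 0.24) and Sypl (-0.22 ± 0.19; SE). At 10 days they were Cplx2 (0.58 ± 0.30), Sv2c (1.41 ± 0.78), Syn3 (-0.39 ± 0.25), Syngr3 (0.53 ± 0.35) and Rab3b (0.49 ± 0.35; SE). Each had a limma adjusted p of 0.9999 or more. Single arrays moved most of these values by more than 1.5 times. Without VTA saline array 1, Sv2c was at 0.52 at 2 days and 0.68 at 10 days, and Syngr3 at 0.24 at 10 days. Syn3 was at -0.18 at 2 days without SN saline array 2 and at -0.23 at 10 days without VTA 10-day array 2. Syn1 was at -0.09 without SN 2-day array 1, and Sypl at -0.07 without VTA saline array 2. Rab3b ran from 0.22 without VTA saline array 2 to 0.79 without SN saline array 1.

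Genes differed widely in how far they spread over the arrays. Sv2c had an SD of 0.851 over the 18 arrays, higher than 99.4% of all genes, with its lowest value on VTA saline array 1 and its highest on SN saline array 1. Syt2 (0.455), Stx1a (0.421), Synpr (0.392) and Cplx1 (0.368) came next. The narrowest were Syp (0.103), which stood at the 1.17th percentile of all genes, Nsf (0.113) and Dnajc5 (0.122). Averaging several probe sets narrows a spread, and the signal level of each gene is not held in the values, so these SDs are descriptions only. VTA 2-day array 1 was the highest array for 12 of the 37 genes (32.4%, against 15.3% of all genes) and SN saline array 1 for 7 (18.9%, against 10.4%). These were the 2 arrays of widest spread over all genes.

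Markers of dopamine neurons and of other cells are given here because the vesicle genes can be set beside them. By limma, 0 of the markers named here passed in the comparisons with saline. The list held 24 measured genes of dopamine neuron identity, Th, Slc6a3 and Slc18a2 among them. In SN after 2 days 23 of 24 were lower with a median difference of -0.98, and after 10 days 23 of 24 with -0.54. In VTA 22 of 24 were lower after 2 days (-0.50) and after 10 days (-0.19). Their mean per array ranged from -0.47 to -0.09 in SN after 2 days and from -0.14 to 0.31 after 10 days, against 0.35 to 0.89 after saline. In VTA it ranged from -0.75 to 0.13 after 2 days and from -0.25 to 0.51 after 10 days, against -0.46 to 0.62 after saline. The value of -0.46 was that of VTA saline array 1, against 0.59 and 0.62 on VTA saline arrays 2 and 3. Sv2c, Cplx2 and Syngr3 had their lowest values on that same array 1, and Snap25, Syt11 and Nsf had their highest there. Th, the rate-limiting enzyme of dopamine synthesis, differed by -1.29 ± 0.52 in SN after 2 days (SE; limma adjusted p = 0.696). Of 17 general neuron genes, 7 were higher and 10 lower in that comparison, with a median of -0.01, and of 16 astrocyte genes 13 were higher, with a median of 0.19. The astrocyte mean per array was 0.01 to 0.21 in SN after 2 days, against -0.14 to 0.00 after saline. All 6 glutamate neuron genes were higher, with a median of 0.67 and a mean per array of 0.05 to 0.30, against -0.73 to -0.20. The 3 erythrocyte genes were lower, with means of -0.20 to -0.09 against -0.03 to 0.73. After 10 days in SN, 8 of 10 ependyma and choroid plexus genes were higher, with a median of 0.68 and means of 0.25 to 0.86 against -0.55 to -0.26, a shift without overlap. In VTA 13 of 14 oligodendrocyte genes were lower after 2 days, with a median of -0.36 and means of -0.32 to -0.05 against 0.03 to 0.48. The 6 oligodendrocyte precursor genes had a median of -0.44 there, with means of -0.22 to 0.03 against 0.16 to 0.43, and of -0.32 after 10 days. Since the values are centred, the presence or absence of any marker cannot be read from them. Their part in the vesicle gene values was not tested beyond the correlations that follow.

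Across the 18 arrays, 4 vesicle genes followed the mean of the 24 dopamine identity genes, which hold no vesicle gene of the 37. The 4 of 37 are 10.8%, where 0.958% of the 18169 genes outside the identity list passed in the positive direction and 0.583% in the negative one (100000 permutations of the arrays, Benjamini-Hochberg over all genes). No vesicle gene passed in the negative direction. The median correlation of the 37 genes was -0.07, and that of all genes 0.02. Arrays may share animals, and both groups and single arrays differ in this mean, so correlations within groups are given beside the pooled ones.

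Sv2c had a Pearson r of 0.891 (permutation adjusted p = 0.00586) and a Spearman rho of 0.930 (permutation adjusted p = 0.0101). Its unadjusted p of 1e-05 is the smallest that 100000 permutations can give. Rab3c had an r of 0.878 (permutation adjusted p = 0.00586) with a rho of 0.876 (adjusted p = 0.0101), and Cplx1 an r of 0.848 (0.00808, permutation adjusted p) with a rho of 0.771 (adjusted p = 0.0426). Syt1 had an r of 0.745 (permutation adjusted p = 0.0256), while its rho of 0.746 did not pass (adjusted p = 0.0738). These genes were thus high on the arrays where dopamine identity genes were high. Unadjusted permutation p-values were 1e-05 for Rab3c, 2e-05 for Cplx1 and 2e-04 for Syt1.

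Leaving out the 2 arrays farthest from the median of the identity mean, SN saline array 1 and VTA saline array 3, r was 0.858 for Sv2c, 0.855 for Rab3c, 0.760 for Cplx1 and 0.686 for Syt1. For deviations from the 6 group means r was 0.922 for Sv2c, 0.853 for Rab3c, 0.782 for Cplx1 and 0.780 for Syt1. Probe sets were less even. All 3 Cplx1 probe sets had r between 0.780 and 0.858, while the 5 Rab3c probe sets ran from 0.312 to 0.834 and the 4 Syt1 probe sets from 0.421 to 0.823. With the single most variable probe set for every gene, r was 0.473 for Rab3c and 0.430 for Syt1, below the values that passed. Syt1 was also below them, at 0.588 after repeated quantile normalisation, at 0.575 without SN saline array 1 and VTA 2-day array 1, and at 0.692 without VTA 2-day array 1 alone.

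**Figure D4:**
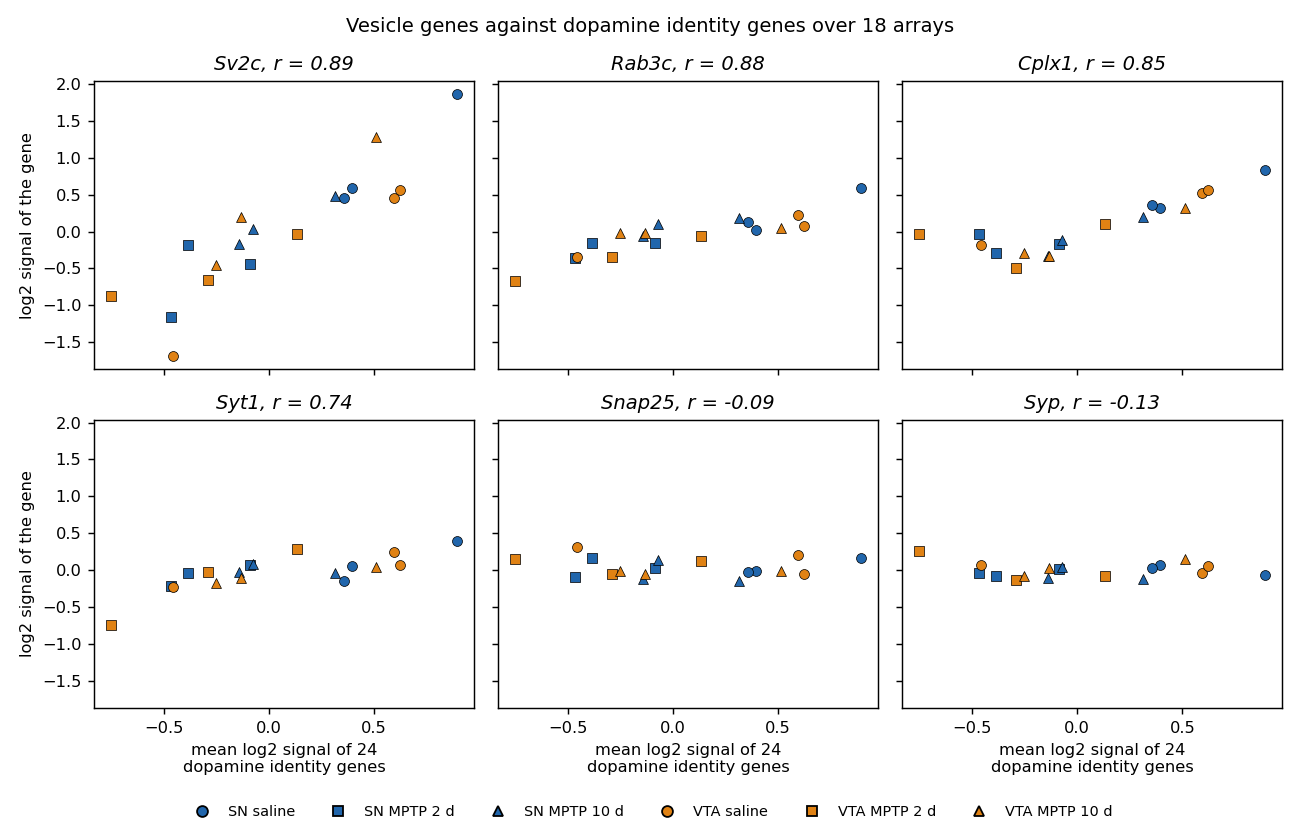
Log2 signal of 6 vesicle genes (vertical) against the mean log2 signal of the 24 dopamine identity genes (horizontal), each point an array, blue for SN and orange for VTA, with circles for saline, squares for 2 days and triangles for 10 days of MPTP. Sv2c, Rab3c, Cplx1 and Syt1 climb with the identity mean (r of 0.89, 0.88, 0.85 and 0.74), while Snap25 and Syp stay level (-0.09 and -0.13).

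Next after these came Syngr1 (r = 0.687, permutation adjusted p = 0.0628), Syngr3 (r = 0.683, permutation adjusted p = 0.0780), Sv2a (0.596) and Vamp2 (0.533). Within groups Vamp2 had an r of 0.776, Syngr3 one of 0.768 and Cplx2 one of 0.744, although the pooled r of Cplx2 was 0.355. At the other end stood Syn2 (r = -0.634, permutation adjusted p = 0.123), Amph (-0.598), Stx1a (-0.594) and Synpr (-0.567). Snap25 (-0.09), Syp (-0.13), Rab3a (0.04) and Unc13a (0.02) had values near 0. Close relatives thus differed: Sv2c stood at 0.891 and Sv2b at -0.10, Rab3c at 0.878 and Rab3b at -0.36, and Cplx1 at 0.848 and Cplx2 at 0.355, and these contrasts between genes were not tested. Against the mean of 16 astrocyte genes, 0 vesicle genes passed, as did 0% of all genes, and the vesicle genes ran from -0.367 to 0.386.

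**Figure D5:**
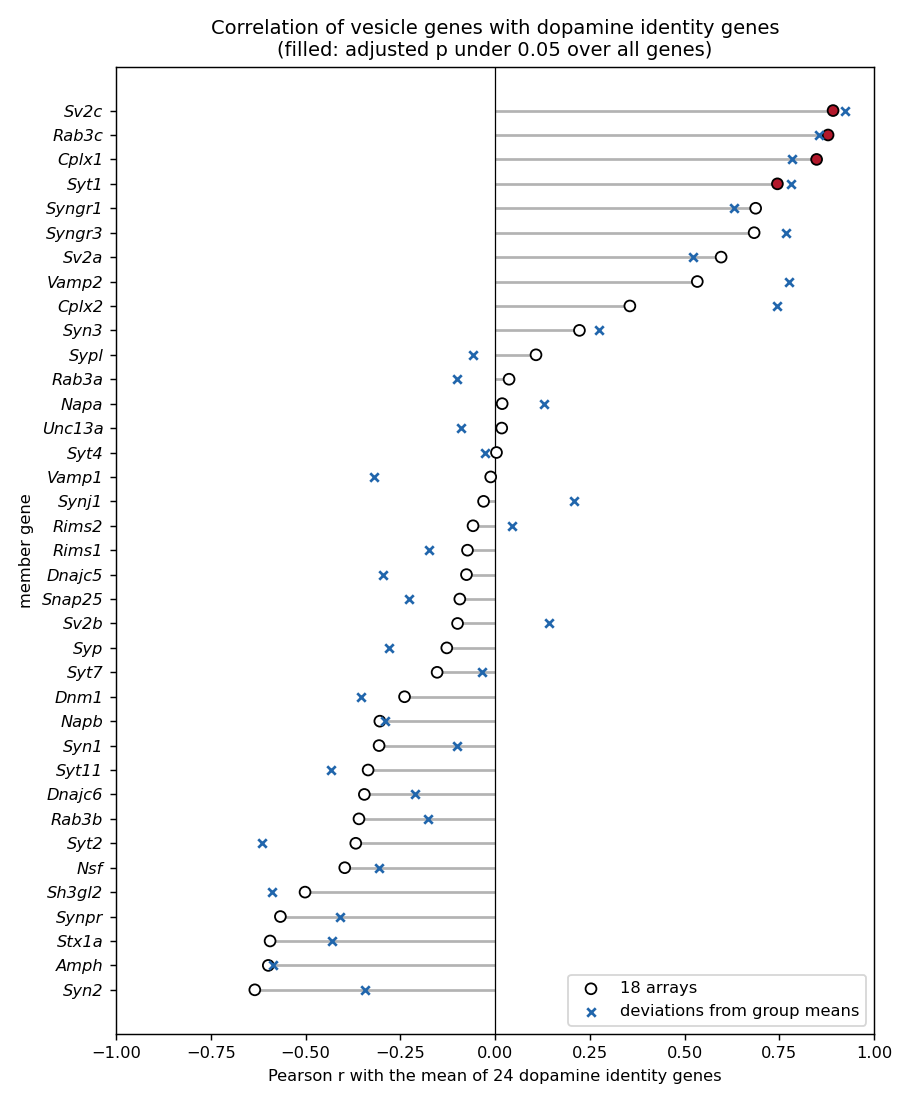
Pearson r of each of the 37 vesicle genes with the mean of the 24 dopamine identity genes over 18 arrays (circles, filled where the permutation p adjusted over all genes is under 0.05) and for deviations from the 6 group means (crosses). The 4 filled circles are Sv2c, Rab3c, Cplx1 and Syt1, from 0.891 to 0.745, and Syn2 is lowest at -0.634.

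The 250 bases before the annotated start of Sv2c, Rab3c, Cplx1 and Syn2 are shown so that their promoters can be compared. These were the vesicle genes without overlap and with an unadjusted limma p under 0.05 in SN after 2 days of MPTP. The sequences were taken from RefSeq on GRCm38.p6 and run 5′ to 3′ on the gene's strand, and capitals mark each GC box (GGGCGG on either strand). For Syn2 the first of 2 listed windows is given.
Sv2c (chr13:96132578-96132827, minus strand): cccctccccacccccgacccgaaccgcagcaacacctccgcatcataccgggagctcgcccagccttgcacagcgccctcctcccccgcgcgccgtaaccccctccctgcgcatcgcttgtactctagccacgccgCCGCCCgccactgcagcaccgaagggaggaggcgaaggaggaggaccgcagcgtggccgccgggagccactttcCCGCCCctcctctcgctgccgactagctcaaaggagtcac
Rab3c (chr13:110280207-110280456, minus strand): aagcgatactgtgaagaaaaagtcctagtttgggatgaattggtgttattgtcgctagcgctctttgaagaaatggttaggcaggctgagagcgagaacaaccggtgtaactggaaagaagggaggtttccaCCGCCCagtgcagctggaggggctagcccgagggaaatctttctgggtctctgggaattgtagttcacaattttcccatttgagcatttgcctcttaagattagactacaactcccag
Cplx1 (chr5:108550028-108550277, minus strand): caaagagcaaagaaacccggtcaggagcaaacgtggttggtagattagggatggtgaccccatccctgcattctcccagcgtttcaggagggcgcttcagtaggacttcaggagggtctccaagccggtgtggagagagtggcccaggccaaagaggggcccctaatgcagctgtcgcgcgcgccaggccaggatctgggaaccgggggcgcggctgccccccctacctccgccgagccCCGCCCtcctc
Syn2 (chr6:115134652-115134901, plus strand): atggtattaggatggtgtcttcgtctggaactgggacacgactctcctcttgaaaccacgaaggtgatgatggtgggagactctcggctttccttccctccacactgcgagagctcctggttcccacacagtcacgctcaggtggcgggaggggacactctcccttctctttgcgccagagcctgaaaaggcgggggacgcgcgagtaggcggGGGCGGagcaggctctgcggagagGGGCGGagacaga

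Promoter windows were found for 29 of the 37 genes. A GC box was in 20 of them (69%), against 32.9% of 27025 mouse promoter windows of the same length. The nuclear receptor half-site AAAGGTCA, the NBRE bound by the dopamine neuron factor Nr4a2, was in 0 of 29, against 1.31% of all windows. The cyclic AMP element TGACGTCA was in those of Sh3gl2 and Syn1 (6.9%, against 1.62%), and TATAAA in those of Rab3b and Sv2b (6.9%, against 13%). Both strands were searched, and none of the 4 motifs contains another. The Rab3c window had a GC content of 47.6%, against 61.2% for Syn2, 64.8% for Cplx1 and 70.8% for Sv2c.

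Beyond the 37 genes, 118 further genes of the vesicle cycle were measured of 124 listed: other SNARE regulators, calcium sensors, active zone and priming genes, vesicle membrane proteins and transporters, the vacuolar proton pump and endocytosis genes. By limma 0 of 118 passed in the 4 comparisons with saline. Their median was -0.02 in SN after 2 days (58 higher, 60 lower), -0.02 after 10 days (51 higher, 67 lower), 0.04 in VTA after 2 days (67 higher, 51 lower) and 0.03 after 10 days (71 higher, 47 lower). In SN after 2 days the largest differences without overlap were Slc18a2 (-0.99 ± 0.43), the vesicular monoamine transporter and itself an identity gene, Slc30a3 (0.96 ± 0.26), the vesicular zinc transporter, Doc2b (0.93 ± 0.28), a calcium sensor of spontaneous release, and Cadps2 (-0.75 ± 0.29), a priming factor of dense-core vesicles (SE). In SN after 10 days Unc13c (1.11 ± 0.43) and Doc2b (0.77 ± 0.28) were higher, and Syt3 was lower (-0.81 ± 0.32; SE). In VTA after 2 days Slc30a3 (0.89 ± 0.26) and Gak (0.43 ± 0.18), an uncoating kinase, were higher, and Unc13c was lower (-0.57 ± 0.43; SE). In VTA after 10 days Napg (0.42 ± 0.16), a SNAP protein, was higher, and Vamp7 was lower (-0.38 ± 0.18; SE). None of these was called.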

How the data were processed

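Gene expression was measured on Affymetrix arrays in 18 samples of 6 groups, grouped by the sample titles. RNA was amplified before labelling, per the labels' protocols. The deposited values are log2 signals that the authors RMA normalised in GeneSpring GX 10.0, per the series' design text. A check of the values showed that each probe set's median over the arrays is 0 to within 5e-07, which removes level and detection, so no filter on dim probe sets was made. Probe sets with 1 symbol were averaged per gene. Those with several symbols (932) or none (9160) and 64 control probe sets were left out. Because the values are microarray signals, the number of arrays limits the precision.

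Differences were fitted with limma 3.58.1 in R 4.3.3, in 1 model of 6 group means (12 residual degrees of freedom), for 12 comparisons, two-sided, with Benjamini-Hochberg adjustment over 18193 genes and a threshold of 0.05. The vesicle genes, the other lists and the tests were chosen with earlier results of these data known, and the correlations with markers were added after the data were seen. All 37 genes are described. Genes given with a test are those whose arrays did not overlap between groups, or the 5 of smallest p for the response differences, and others are given as values. Of the further vesicle genes, up to 4 without overlap and of largest difference were named per comparison. Same-numbered VTA and SN arrays at 10 days deviated together in every pair (correlation 0.28 to 0.40), a pairing read from the data, since the labels do not state it. In each other comparison the lowest of the 3 correlations was between -0.260 and 0.0763, short of the 0.1 required of every pair. Fits were tested on simulated data. Alternatives were another probe set per gene, array centring, repeated quantile normalisation, the compared groups alone, array weights or blocks, and arrays left out.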

Additional observations from a re-analysis of the deposited data

How the results depend on the processing

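The count of vesicle genes past the threshold stayed at 0 in all 197 alternative fits. All 516 alternative differences of the genes given with a test kept their direction and their side of the threshold. Genes given only as values were not in that count, and Syt1 in VTA after 2 days changed sign without VTA 2-day array 1. With the most variable probe set for each gene, several differences were over 1.5 times as large: Synj1 (0.49) and Rab3a (-0.17) in SN after 2 days, Cplx1 (-0.96) and Rab3a (-0.45) in SN after 10 days, Syngr1 (-1.20) in VTA after 2 days, Rab3c between durations in SN (0.62) and VTA (1.08), Nsf (-0.47) between durations in VTA, and Cplx2 (-0.82) and Syt7 (-0.32) between regions after saline. Sypl between durations in VTA was smaller (0.13). Of 197 alternative medians of the 37 genes, 189 moved by less than 0.0613 and 8 moved further, each with 1 array left out. That yardstick was the pooled SD within groups of the mean of the 37 genes per array, not a spread of the median itself. With arrays left out in turn, the median ran from -0.118 to -0.026 in SN after 10 days, from -0.0148 to 0.0664 in VTA after 2 days, from -0.130 to 0.0040 between durations in VTA and from -0.0334 to 0.0554 between regions after 2 days. For the VTA minus SN response it ran from -0.0067 to 0.108 at 2 days and from 0.0068 to 0.0756 at 10 days. The cause was not tested. Where leaving out an array left 2 in a group, limma's pooled spread was used. Of 88 alternative correlations of Sv2c, Rab3c, Cplx1 and Syt1, 83 still passed and 5 did not, 4 of them for Syt1 and 1 for Rab3c. Their permutation p-values were not adjusted again over all genes. The largest unadjusted permutation p that passed in the main correlations was 0.00077, and that of the failing Rab3c alternative was 0.0493. With the replicate number as a block, the count stayed at 0 in each comparison and the median in SN after 2 days stayed at 0.012. The block changed no call, and 16 of 18 arrays correlated best with their own number, a hint from the data. Same-numbered arrays of different groups had a median correlation of 0.08, against -0.04 for pairs of other numbers. The main model held no block for this, and what the number stands for was not tested. Deposited values hold no signal over background, so dim genes could not be told from others.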
